A study of Mus musculus with 16 samples.

Results

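The BCL2 family genes described here are 10 of the 46078 genes listed in the count data, taken by gene name: *Bcl2l1*, *Mcl1*, *Bcl2*, *Bax*, *Bak1*, *Bcl2l11*, *Bbc3*, *Pmaip1*, *Bid* and *Bad*. The list was made with earlier results of these data known. Each name matched 1 gene. RNA was sequenced from polychromatic (Poly-E) and orthochromatic (Ortho-E) erythroblasts of *Ypel4*+/+ and *Ypel4*-/- mice to ask whether the loss of *Ypel4* changes the erythroblast transcriptome. There were 4 libraries in each of the 4 groups. All mice carry 1 strain label: the background is C57BL/6N-A<tm1Brd>, and the allele on it is *Ypel4*<tm1a(EUCOMM)Wtsi> of the line WtsiIeg. Mice labelled wild-type are *Ypel4*+/+ here, and those labelled homozygous mutant are *Ypel4*-/-. The allele is present in every cell of the mutant mice, not in erythroid cells only, and no treatment was given. Cells came from steady-state bone marrow and were sorted by CD44 and Ter119 with propidium iodide to leave out dead cells, so dying cells that take up the dye were not sampled. Age and sex are not given in the sources used here.

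BCL2 family proteins decide whether the outer mitochondrial membrane is opened in the intrinsic pathway of apoptosis. The survival proteins BCL-XL (from *Bcl2l1*), MCL1 and BCL2 hold back the pore-forming effectors BAX and BAK, and BH3-only proteins such as BIM (*Bcl2l11*), PUMA (*Bbc3*), NOXA (*Pmaip1*), BID and BAD bind the survival proteins or engage the effectors. In the erythroid lineage BCL-XL is known as a main survival factor of late erythroblasts, acting downstream of the erythropoietin receptor and GATA1, while MCL1 is known for its role in earlier erythroid progenitors.

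Depth ranged from 2670173 to 12451234 counts per library, and no 2 libraries held identical counts. *Ypel4* itself was counted 2531 to 9080 times in the *Ypel4*+/+ and 65 to 283 times in the *Ypel4*-/- Poly-E libraries. In Ortho-E the counts were 7757 to 23326 against 388 to 1161, so each mutant library was below each wild-type library of its population. The 9 erythroid markers were all detected, with a summed level between 55581 and 301600 CPM per library. CPM are counts relative to the library total after the TMM scaling of edgeR, which sets libraries to a shared level over most genes. Markers of other cells were low next to these, though not next to every member: *Bax*, for instance, was at 4.05 to 23.1 CPM. The 11 neutrophil and monocyte markers summed to at most 20.8 CPM with *Ly6g* at 0, the 6 macrophage markers to at most 10.1 CPM, the 4 T cell markers to at most 0.90 CPM, and the 6 B cell markers, all detected, to between 14.7 and 52.2 CPM. The 5 megakaryocyte and platelet markers ranged from 26.7 to 113 CPM, with *Gp1bb* at 0 throughout and *Pf4* at 0 in Ortho-E.

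Levels of different genes were compared as CPM per kb of the deposited gene length. *Mcl1* and *Bcl2l1* were the most abundant members in Poly-E cells, *Bax* came next, and *Bcl2l1* alone stood far above the rest in Ortho-E cells. In *Ypel4*+/+ Poly-E, *Mcl1* was at 49.8 CPM per kb (range 43.3 to 59.4, n = 4) and *Bcl2l1* at 48.4 (35.8 to 70.6), and these ranges overlapped. *Bax* followed at 19.2 CPM per kb, then *Bbc3* at 9.24, with ranges that overlapped each other and lay below those of the leading pair. *Bcl2l11* was at 3.14, *Bak1* at 1.54, *Bad* at 0.94 and *Bid* at 0.41 CPM per kb. *Pmaip1* and *Bcl2* closed the order at 0.043 and 0.023 CPM per kb, which in counts was 3 and 8 over the 4 libraries together. The order in *Ypel4*-/- Poly-E was the same. In *Ypel4*+/+ Ortho-E, *Bcl2l1* was at 661 CPM per kb (600.3 to 691), followed by *Mcl1* at 41.4, *Bbc3* at 20.1 and *Bax* at 12.7, none of whose ranges overlapped the next. The *Ypel4*-/- Ortho-E libraries had the same 4 genes on top in the same order, at 635, 40.6, 21.2 and 9.32 CPM per kb. The order of *Mcl1* and *Bcl2l1* in Poly-E depended on the length used: per kb of the longest coding transcript, *Bcl2l1* was at 86.4 and *Mcl1* at 49.8 in *Ypel4*+/+, and the ranges no longer overlapped.

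**Figure D1:**
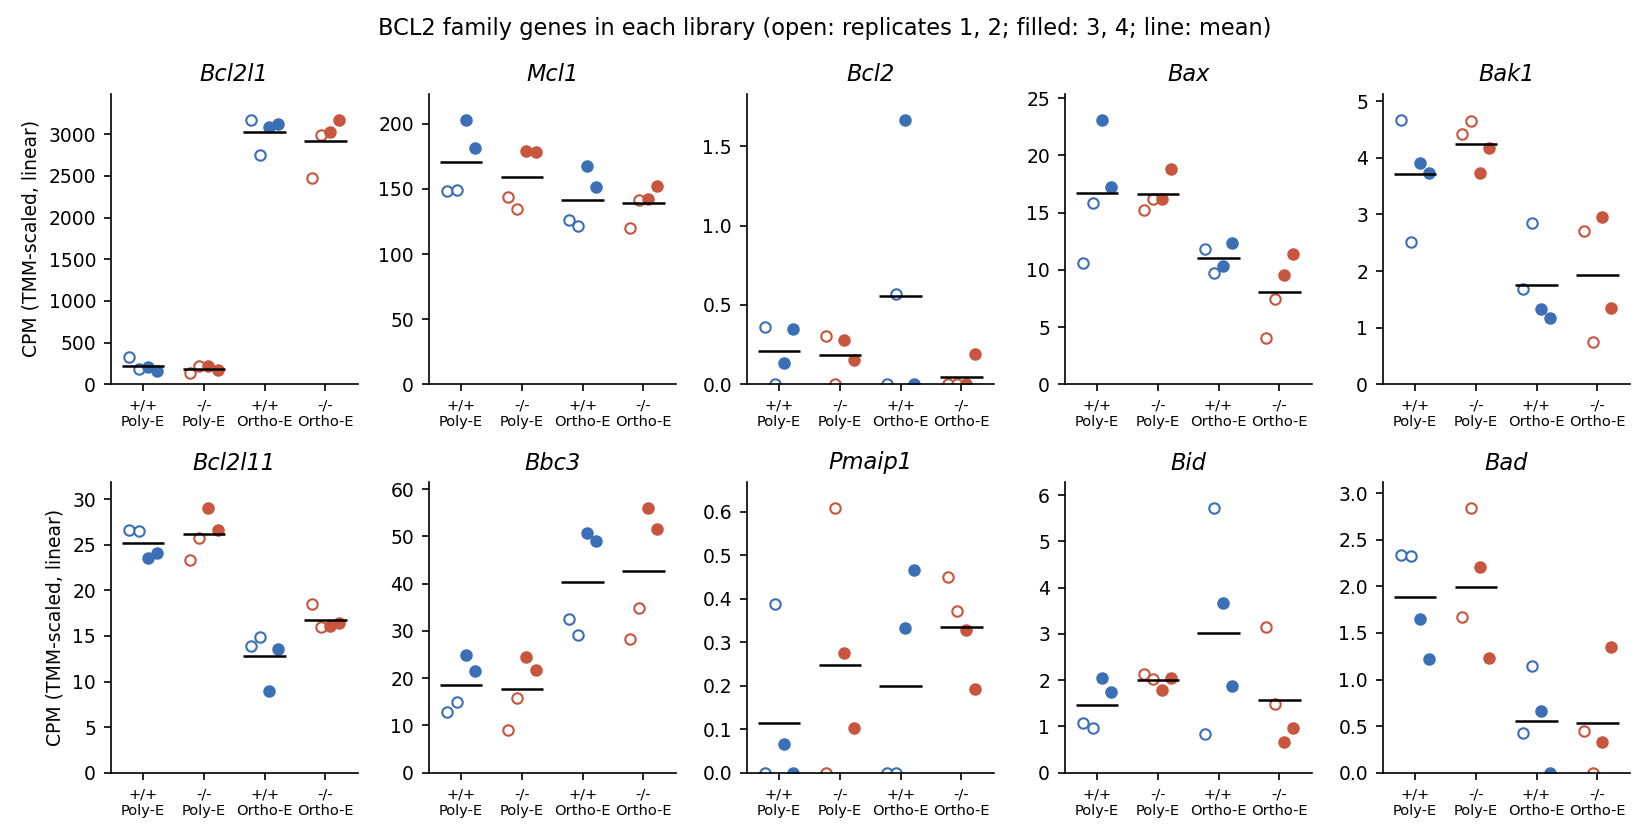
CPM of the 10 BCL2 family genes (y axis, linear from 0, TMM-scaled, a scale for each gene) in every library of the 4 groups (x axis), with open points for replicates 1 and 2, filled points for replicates 3 and 4 and a line at the mean of 4 libraries. *Bcl2l1* lies between 136 and 324 CPM in Poly-E and between 2470 and 3171 CPM in Ortho-E, *Mcl1* stays between 120 and 203 CPM, and *Bcl2* and *Pmaip1* rest on a few counts.

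The main difference among these genes was between the populations. After TMM scaling, in *Ypel4*+/+ mice, *Bcl2l1* and *Bbc3* were higher in Ortho-E than in Poly-E, *Bax*, *Bak1*, *Bcl2l11* and *Bad* were lower, and *Mcl1*, *Bid* and *Bcl2* did not pass the test. In *Ypel4*-/- mice the same 2 genes were called higher and the same 4 were called lower, while *Mcl1*, *Bid* and *Pmaip1* did not pass. The calls come from edgeR (quasi-likelihood test, p-values adjusted by the method of Benjamini and Hochberg over all genes tested, threshold 0.05). With a total of at least 10 counts required, 9 of the 10 members were tested in each genotype, *Pmaip1* being left out in *Ypel4*+/+ and *Bcl2* in *Ypel4*-/- mice. Of all genes tested, 26.4% were called higher and 32.1% lower in *Ypel4*+/+ mice, and 29.5% higher and 31.5% lower in *Ypel4*-/- mice, so the members' counts of 2 higher and 4 lower of 9 were near the share of all genes. The median log2 fold change of the members tested was -0.23 in *Ypel4*+/+ and -0.37 in *Ypel4*-/- mice, beside -0.19 and -0.089 for all genes tested. DESeq2 called the same number higher, against 26.8% and 27.7% of all genes, and called 2 members lower in *Ypel4*+/+ and 3 in *Ypel4*-/- mice, against 25.8% and 26.5%. The CPM ranges of Poly-E and Ortho-E did not overlap for 4 of 9 members in *Ypel4*+/+ and 5 of 9 in *Ypel4*-/- mice, against 53.2% and 55.5% of all genes tested. In a bulk sample, a change in the cells that make up the population and a change in RNA per cell cannot be told apart.

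The scale between the populations matters for every one of these changes. The median log2 fold change over genes averaging 10 or more counts per library was -0.35 in *Ypel4*+/+ and -0.25 in *Ypel4*-/- mice after TMM scaling, but -1.63 and -1.66 when libraries were scaled to their totals alone. Globin counts made up 5.36% to 6.43% of Poly-E and 10.7% to 13.9% of Ortho-E libraries. On library totals, 10.4% of all genes tested were called higher and 60.3% lower in *Ypel4*+/+ mice, and 11.2% and 60.9% in *Ypel4*-/- mice. On that scale *Bcl2l1* was the 1 member called higher in both genotypes, while 5 members were called lower in *Ypel4*+/+ (*Mcl1*, *Bax*, *Bak1*, *Bcl2l11* and *Bad*) and 6 in *Ypel4*-/- mice (these and *Bid*). Changes of the members between the populations are therefore given below under both scalings. Ratios of 2 members within a library, which do not depend on the scaling, are added. The size of such a ratio does depend on the gene lengths used.

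**Figure D2:**
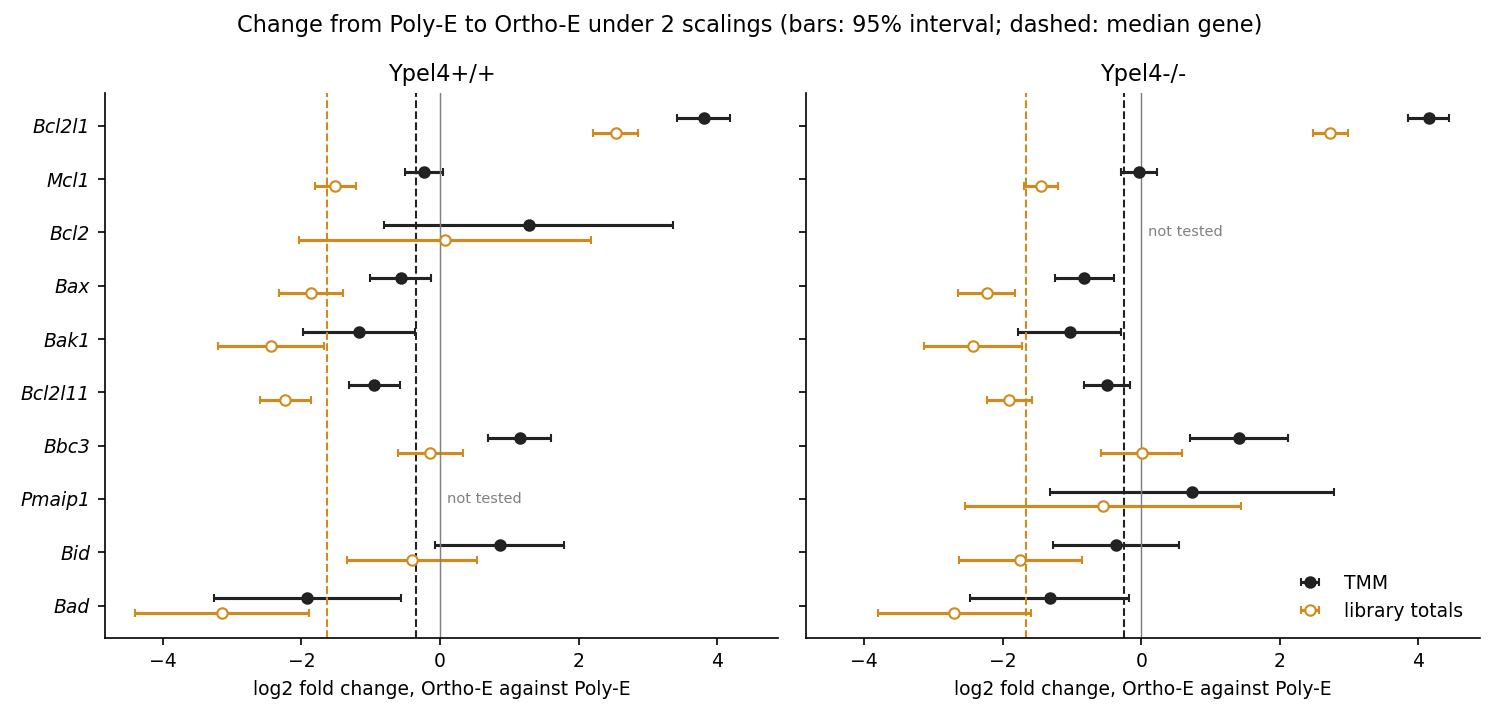
log2 fold change of each BCL2 family gene in Ortho-E against Poly-E (x axis) in *Ypel4*+/+ (left) and *Ypel4*-/- mice (right), with TMM scaling (filled black) and library totals (open orange), bars for the 95% confidence interval and dashed lines at the median gene of each scaling. *Bcl2l1* lies above 0 under both scalings in both genotypes, *Bbc3* lies above 0 with TMM and at 0 on library totals, and *Mcl1* lies close to the median gene under both.

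*Bcl2l1* encodes BCL-XL and lies on chromosome 2 of GRCm38 on the minus strand (chr2:152780668-152831728). Its CPM in the 4 *Ypel4*+/+ Poly-E libraries, replicates 1 to 4, were 324, 186, 213 and 164, against 3168, 2753, 3084 and 3121 in Ortho-E. In *Ypel4*-/- mice they were 136, 215, 222 and 168 in Poly-E, against 2470, 2992, 3023 and 3171 in Ortho-E. The lowest Ortho-E library was above the highest Poly-E library by a wide margin in both genotypes. Ortho-E was 14-fold higher than Poly-E in *Ypel4*+/+ mice (log2 fold change 3.81, standard error 0.18, adjusted p = 7.83e-13) and 17.8-fold higher in *Ypel4*-/- mice (4.15, standard error 0.14, adjusted p = 2.26e-21). On library totals the folds were 5.80 and 6.64 (adjusted p = 4.27e-12 and 3.19e-18), and the rise was thus called under both scalings. Relative to the median gene, a distance that a change of scaling leaves nearly fixed by construction, the log2 differences were 4.16 and 4.40 with TMM.

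Promoter windows from RefSeq on GRCm38.p6 (250 bases before to 50 after a transcription start) were found for 9 of the 10 members, 15 windows in all, with no entry for *Pmaip1*. They were searched on both strands for letters of factors known in erythroid cells, chosen after the expression values were seen. The letters AGATAA or AGATAG, with TGATAA or TGATAG as other forms, which GATA factors such as GATA1 bind, are in 29.8% of all 32851 windows and in 2 of the 15 member windows, 1 of 3 for *Bcl2l1* and the window of *Bid*. Both are shown because *Bcl2l1* rose most among the members while *Bid* was not called after TMM scaling; the capitals mark the motif, which starts 41 and 42 bases before the start site, and the stretches are chr2:152828511-152828540 and chr6:120916847-120916876, both printed 5′ to 3′ on the minus strand.
Bcl2l1: tgtgacccaaAGATAAagagagcagaggct
Bid: gagggcggggCTATCAcaggggcggggctc
In *Bid* the letters are those of TGATAG on the opposite strand. The same *Bcl2l1* window also holds AGATAG 35 bases after the start site, which is not printed. TTCNNNGAA, bound by STAT factors such as STAT5, is in 8.3% of all windows and in 0 of the 15, and CCNCNCCC, a pattern bound by KLF1, is in 49.5% of all and in 10 of the 15. A match is a description of the letters, and counts per gene do not say which start site was used. For 10 of the 15 windows the 50 bases after the start lay in an annotated (GENCODE) transcript of the gene.

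*Mcl1*, whose protein is a short-lived survival factor, lies on chromosome 3 (chr3:95658788-95663176, plus strand) and was the most even of the abundant members after TMM scaling. In *Ypel4*+/+ mice its CPM were 148, 149, 203 and 181 for Poly-E and 126, 122, 168 and 151 for Ortho-E. In *Ypel4*-/- mice they were 143, 135, 179 and 178 for Poly-E and 120, 141, 142 and 152 for Ortho-E. The ranges of Poly-E and Ortho-E overlapped in both genotypes. The log2 fold change was -0.23 (95% interval -0.51 to 0.050, adjusted p = 0.15) in *Ypel4*+/+ and -0.03 (-0.29 to 0.23, adjusted p = 0.85) in *Ypel4*-/- mice. With the replicate number as a block, which pairs the libraries read as those of 1 mouse, the same difference in *Ypel4*+/+ mice was called (-0.23, standard error 0.093, adjusted p = 0.023). On library totals *Mcl1* was called lower in Ortho-E, at -1.51 and -1.45 (adjusted p = 6.47e-10 and 2.92e-12), which is 0.12 and 0.21 above the median gene of that scaling.

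Within a library the balance of both abundant survival genes shifted to *Bcl2l1*. The ratio of *Bcl2l1* to *Mcl1* in CPM per kb was 1.63, 0.93, 0.78 and 0.68 in the *Ypel4*+/+ Poly-E libraries, against 18.8, 16.9, 13.7 and 15.4 in Ortho-E. In *Ypel4*-/- mice it was 0.71, 1.19, 0.92 and 0.70 in Poly-E, against 15.3, 15.8, 15.9 and 15.6 in Ortho-E. On the deposited lengths, Poly-E libraries lay on both sides of 1 and Ortho-E libraries all above 13, with no overlap. Per kb of the longest coding transcript, *Bcl2l1* was above *Mcl1* in all Poly-E libraries. There the ranges were 63.9 to 126 against 43.3 to 59.4 in *Ypel4*+/+ and 52.95 to 86.3 against 39.4 to 52.4 in *Ypel4*-/- mice. The shares that follow also rest on the deposited lengths. *Bcl2l1* made up 40.3% to 62.0% of the summed CPM per kb of *Bcl2l1*, *Mcl1* and *Bcl2* in *Ypel4*+/+ Poly-E, and 93.2% to 94.9% in Ortho-E. In *Ypel4*-/- mice these shares were 41.3% to 54.3% and 93.9% to 94.1%.

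*Bcl2*, the founding survival gene of the family (chr1:106538178-106714274), was near the limit of detection. Its counts summed to 8 in Poly-E and 6 in Ortho-E of *Ypel4*+/+ mice, and to 7 and 1 in *Ypel4*-/- mice. Of the 6 counts in *Ypel4*+/+ Ortho-E, 5 were in replicate 3. Its difference between populations in *Ypel4*+/+ mice had a 95% interval from -0.81 to 3.36 on the log2 scale after TMM scaling (adjusted p = 0.29). On library totals the difference was 0.069 (adjusted p = 0.96), so neither a rise nor a fall was detectable at this depth. Exons of *Bcl2* and of *D630008O14Rik* on the opposite strand overlap over 558 bases, and read pairs on several genes were not counted for either.

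The effector genes *Bax* and *Bak1* were lower in Ortho-E. *Bax* (chr7:45461695-45466898), the more abundant of the pair, had 10.6, 15.9, 23.1 and 17.2 CPM in the Poly-E libraries of *Ypel4*+/+ mice, against 11.8, 9.71, 10.3 and 12.4 CPM in Ortho-E. In *Ypel4*-/- mice it had 15.2, 16.2, 16.1 and 18.8 CPM in Poly-E, against 4.05, 7.42, 9.54 and 11.4 CPM in Ortho-E. The populations overlapped in *Ypel4*+/+ mice through Poly-E replicate 1 and did not overlap in *Ypel4*-/- mice. Its log2 fold change came to -0.57 (standard error 0.22, adjusted p = 0.026) in *Ypel4*+/+ and -0.82 (standard error 0.21, adjusted p = 0.00095) in *Ypel4*-/- mice. The call in *Ypel4*+/+ mice was lost in 8 of 17 alternatives, among them DESeq2 (-0.43, adjusted p = 0.16), and without Poly-E replicate 3 the value was -0.25 (adjusted p = 0.33). On library totals *Bax* was at -1.86 and -2.23 (adjusted p = 4.93e-08 and 2.33e-11). Relative to the median gene, *Bax* was at -0.22 and -0.58 with TMM and at -0.22 and -0.57 on library totals.

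*Bak1* (chr17:27019810-27029009) summed to 141 counts in Poly-E and 18 in Ortho-E of *Ypel4*+/+ mice, and to 160 and 24 in *Ypel4*-/- mice. Its CPM ranged from 2.52 to 4.67 in *Ypel4*+/+ Poly-E and from 1.17 to 2.86 in Ortho-E, and from 3.73 to 4.66 and from 0.74 to 2.96 in *Ypel4*-/- mice, where the ranges did not overlap. The log2 fold changes were -1.17 (standard error 0.39, adjusted p = 0.012) and -1.04 (standard error 0.36, adjusted p = 0.014). On library totals *Bak1* was at -2.44 and -2.43 (adjusted p = 2.27e-06 and 2.7e-07). Relative to the median gene it was at -0.82 and -0.79 with TMM. Without *Ypel4*+/+ Ortho-E replicate 4 the adjusted p was 0.067, without *Ypel4*-/- Ortho-E replicate 2 it was 0.061, without replicate 4 of that group it was 0.083, and with DESeq2 it was 0.0504 in *Ypel4*+/+ mice. Exons of *Bak1* and *Ggnbp1* overlap over 357 bases.

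The ratio of *Bcl2l1* to *Bax* in CPM per kb was 5.79, 2.23, 1.75 and 1.81 in *Ypel4*+/+ Poly-E, against 50.7, 53.7, 56.6 and 47.8 in Ortho-E. It was 1.69, 2.51, 2.60 and 1.69 in *Ypel4*-/- Poly-E, against 116, 76.4, 60.1 and 52.8 in Ortho-E. The Ortho-E libraries of both genotypes were all far above the Poly-E libraries, and the highest value rests on 9 counts of *Bax*. The ratio of *Mcl1* to *Bax* lay between 2.23 and 3.55 in *Ypel4*+/+ Poly-E and between 2.71 and 4.13 in Ortho-E, ranges that overlap. In *Ypel4*-/- mice it lay between 2.11 and 2.82 in Poly-E (mean 2.43) and between 3.39 and 7.54 in Ortho-E (mean 4.89), without overlap.

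**Figure D3:**
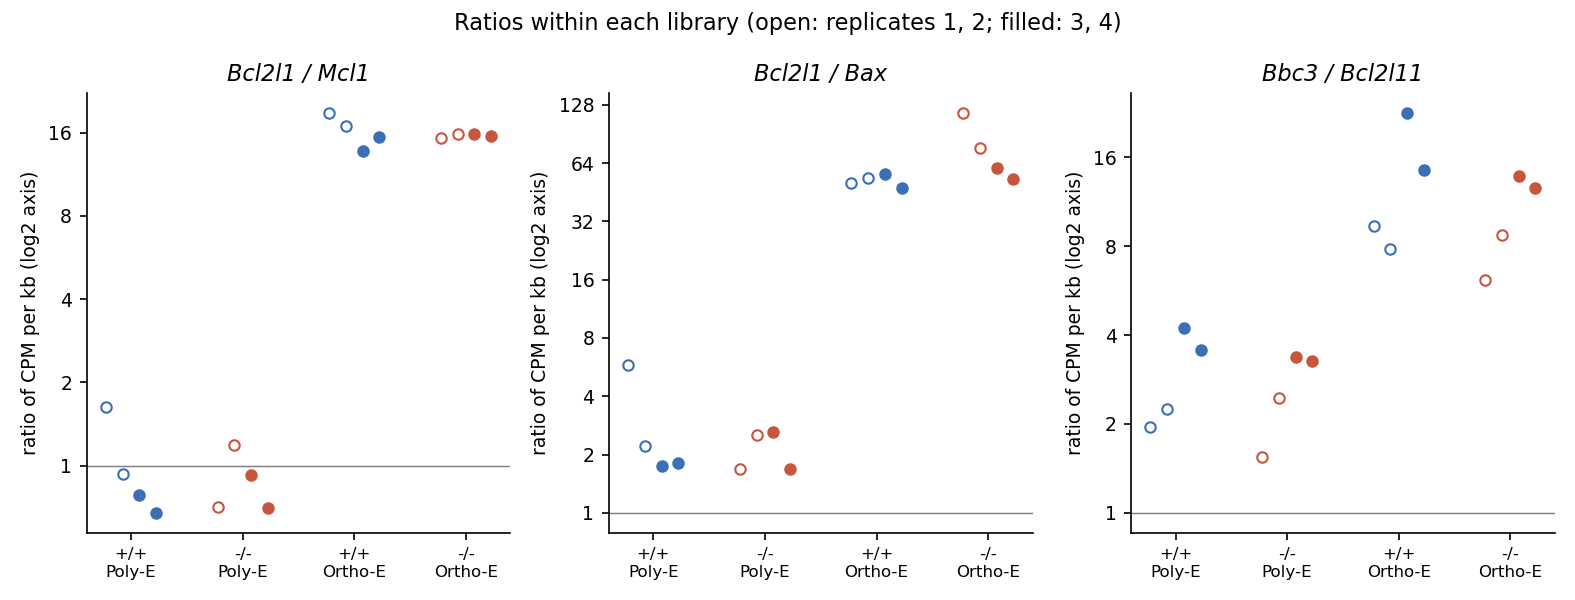
Ratios of CPM per kb within each library (y axis, log2 scale) for *Bcl2l1* to *Mcl1*, *Bcl2l1* to *Bax* and *Bbc3* to *Bcl2l11* in the 4 groups (x axis), with open points for replicates 1 and 2 and filled points for replicates 3 and 4. Each ratio is higher in every Ortho-E library than in every Poly-E library of the same genotype.

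The BH3-only genes did not move together. *Bbc3*, which encodes PUMA, a p53 and FOXO3 target (chr7:16309616-16318205), had the highest level per kb of the 5 BH3-only genes among the members in every group. Its CPM were 12.9, 14.9, 24.9 and 21.5 in *Ypel4*+/+ Poly-E, against 32.5, 29.1, 50.6 and 49 in Ortho-E. In *Ypel4*-/- mice they were 8.98, 15.8, 24.4 and 21.7 in Poly-E, against 28.3, 34.9, 55.9 and 51.5 in Ortho-E. No Poly-E library reached an Ortho-E library of its genotype, and the log2 fold changes were 1.15 (standard error 0.21, adjusted p = 0.00013) and 1.41 (standard error 0.31, adjusted p = 0.0030). On library totals they were -0.14 (adjusted p = 0.59) and 0.0040 (adjusted p = 0.99), so the rise of *Bbc3* is one relative to most other genes, 1.5 and 1.66 above the median gene of that scaling on the log2 scale.

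*Bbc3* also differed between replicates: in each of the 4 groups, replicates 1 and 2 were both below replicates 3 and 4. The mean CPM of replicates 1 and 2 against 3 and 4 were 13.9 and 23.2 in *Ypel4*+/+ Poly-E, 12.4 and 23.0 in *Ypel4*-/- Poly-E, 30.8 and 49.8 in *Ypel4*+/+ Ortho-E and 31.6 and 53.7 in *Ypel4*-/- Ortho-E. *Mcl1* was the other member with this pattern in all 4 groups, for instance 149 against 192 CPM in *Ypel4*+/+ Poly-E, and 3.38% of the 13318 genes tested over all libraries shared it. The labels do not say what sets these replicates apart. Within replicates 1 and 2 the log2 ratio of mean *Bbc3* CPM in Ortho-E against Poly-E was 1.15 in *Ypel4*+/+ and 1.35 in *Ypel4*-/- mice, and within replicates 3 and 4 it was 1.1 and 1.22.

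*Bcl2l11*, the gene of the BH3-only protein BIM (chr2:128126038-128162547), was lower in Ortho-E. Its CPM were 26.6, 26.5, 23.5 and 24.1 in *Ypel4*+/+ Poly-E, against 13.9, 14.8, 9.0 and 13.5 in Ortho-E. They were 23.3, 25.7, 29.0 and 26.6 against 18.4, 16, 16.1 and 16.4 in *Ypel4*-/- mice. The populations did not overlap in either genotype. The log2 fold changes were -0.95 (standard error 0.18, adjusted p = 5.01e-05) and -0.49 (standard error 0.16, adjusted p = 0.0091), and -2.23 and -1.91 on library totals. Relative to the median gene, *Bcl2l11* was at -0.60 and -0.25 under either scaling. The ratio of *Bbc3* to *Bcl2l11* in CPM per kb rose from between 1.95 and 4.24 in Poly-E to between 7.84 and 22.5 in Ortho-E of *Ypel4*+/+ mice, and from between 1.54 and 3.37 to between 6.14 and 13.9 in *Ypel4*-/- mice.

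Both *Bcl2l11* and *Bbc3* hold the letters GTAAACA, bound by FOXO factors such as FOXO3, in 1 promoter window each. These letters are in 3.65% of all windows and in 2 of the 15 member windows. The stretches are shown because both genes changed between the populations, in opposite directions after TMM scaling; they lie at chr2:128125801-128125830 and chr7:16310084-16310113 on the plus strand of GRCm38.p6, with the motif in capitals 227 and 167 bases before the start site.
Bcl2l11: agacactaggGTAAACAcgccggggtgggc
Bbc3: ctggcgggttTGTTTACaaacaatggggtt
In *Bbc3* the letters are those of GTAAACA on the opposite strand.

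*Bad*, which encodes a BH3-only protein controlled by growth factor signalling (chr19:6941861-6951898), summed to 64 counts in Poly-E and 5 in Ortho-E of *Ypel4*+/+ mice, and to 65 and 9 in *Ypel4*-/- mice. It ranged from 1.22 to 2.34 CPM in *Ypel4*+/+ Poly-E and from 0 to 1.14 CPM in Ortho-E, without overlap, while in *Ypel4*-/- mice Ortho-E replicate 4 with 1.35 CPM reached into the Poly-E range. The log2 fold changes were -1.92 (standard error 0.66, adjusted p = 0.014) and -1.32 (standard error 0.56, adjusted p = 0.042). On library totals *Bad* was at -3.15 and -2.70 (adjusted p = 5.68e-05 and 4.86e-05). Relative to the median gene it was at -1.57 and -1.08 with TMM. The call was lost without *Ypel4*+/+ Ortho-E replicate 4 (-1.27, adjusted p = 0.099), and in *Ypel4*-/- mice it was lost in 6 alternatives, with adjusted p from 0.077 to 0.14. Exons of *Bad* and *Gpr137* overlap over 517 bases.

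*Bid*, whose protein links death receptors to mitochondria (chr6:120891930-120916853), was uneven. In *Ypel4*+/+ Ortho-E its CPM were 0.84, 5.71, 3.67 and 1.87, from 2 to 11 counts per library, against 0.97 to 2.05 CPM in Poly-E. In *Ypel4*-/- mice they were 3.15, 1.48, 0.66 and 0.96 in Ortho-E against 1.79 to 2.13 in Poly-E. The log2 fold change was 0.86 (95% interval -0.071 to 1.79, adjusted p = 0.11) in *Ypel4*+/+ and -0.37 (-1.28 to 0.55, adjusted p = 0.50) in *Ypel4*-/- mice, and on library totals it was -0.41 (adjusted p = 0.43) and -1.75 (adjusted p = 0.00068). Without *Ypel4*+/+ Ortho-E replicate 1 it was called higher in *Ypel4*+/+ mice (1.14, adjusted p = 0.033). Exons of *Bid* and *Bcl2l13*, whose 5250 counts in *Ypel4*+/+ Poly-E exceed the 62 of *Bid*, overlap over 628 bases on opposite strands, and the counting did not use strand.

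*Pmaip1*, which encodes the MCL1-binding protein NOXA, summed to 3 counts in Poly-E and 3 in Ortho-E of *Ypel4*+/+ mice, and to 7 and 4 in *Ypel4*-/- mice. The highest library had 3 counts. In *Ypel4*-/- mice the change had a 95% interval from -1.32 to 2.78 on the log2 scale after TMM scaling (adjusted p = 0.55). On library totals the change was -0.56 (adjusted p = 0.62), and no difference was detectable at this depth.

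Between the genotypes, 0 of the 10 members were called in Poly-E and 0 of the 8 tested in Ortho-E, where *Bcl2* and *Pmaip1* had too few counts. Of all genes tested, 0.00807% were called in Poly-E and 0.0285% in Ortho-E by edgeR. At an unadjusted p under 0.05 there were also 0 members in either population in the main edgeR fit, against 2.19% and 3.68% of all genes. *Bcl2l11* in Ortho-E was under 0.05 in edgeR on library totals (unadjusted p = 0.044) and with the replicate block (0.041), without a call. DESeq2 called 0 members in either population, against 0.0107% and 0.0237% of all genes. The CPM ranges of the genotypes did not overlap for 0 of 10 members in Poly-E, against 2.09% of all genes, and for 1 of 8 in Ortho-E, against 2.35%. In Ortho-E, *Bcl2l1* differed by -0.04 (95% interval -0.22 to 0.14) and *Mcl1* by -0.01 (-0.25 to 0.23) on the log2 scale. In Poly-E, *Bcl2l1* differed by -0.26 (-0.74 to 0.22), *Mcl1* by -0.10 (-0.36 to 0.17), *Bax* by -0.03 (-0.41 to 0.35) and *Bcl2l11* by 0.07 (-0.18 to 0.31). *Bbc3* differed by -0.08 (-0.75 to 0.59) in Poly-E and by 0.08 (-0.31 to 0.48) in Ortho-E, and *Bak1* by 0.18 (-0.29 to 0.65) and 0.21 (-0.89 to 1.32). In Poly-E, *Bid* differed by 0.35 (-0.29 to 0.99), *Bad* by 0.06 (-0.66 to 0.77), *Bcl2* by -0.19 (-1.98 to 1.59) and *Pmaip1* by 1.13 (-1.25 to 3.52). For *Bid* and *Bad* in Ortho-E the intervals reached from -2.11 to 0.19 and from -1.46 to 2.34, so that changes of several fold lie within them.

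**Figure D4:**
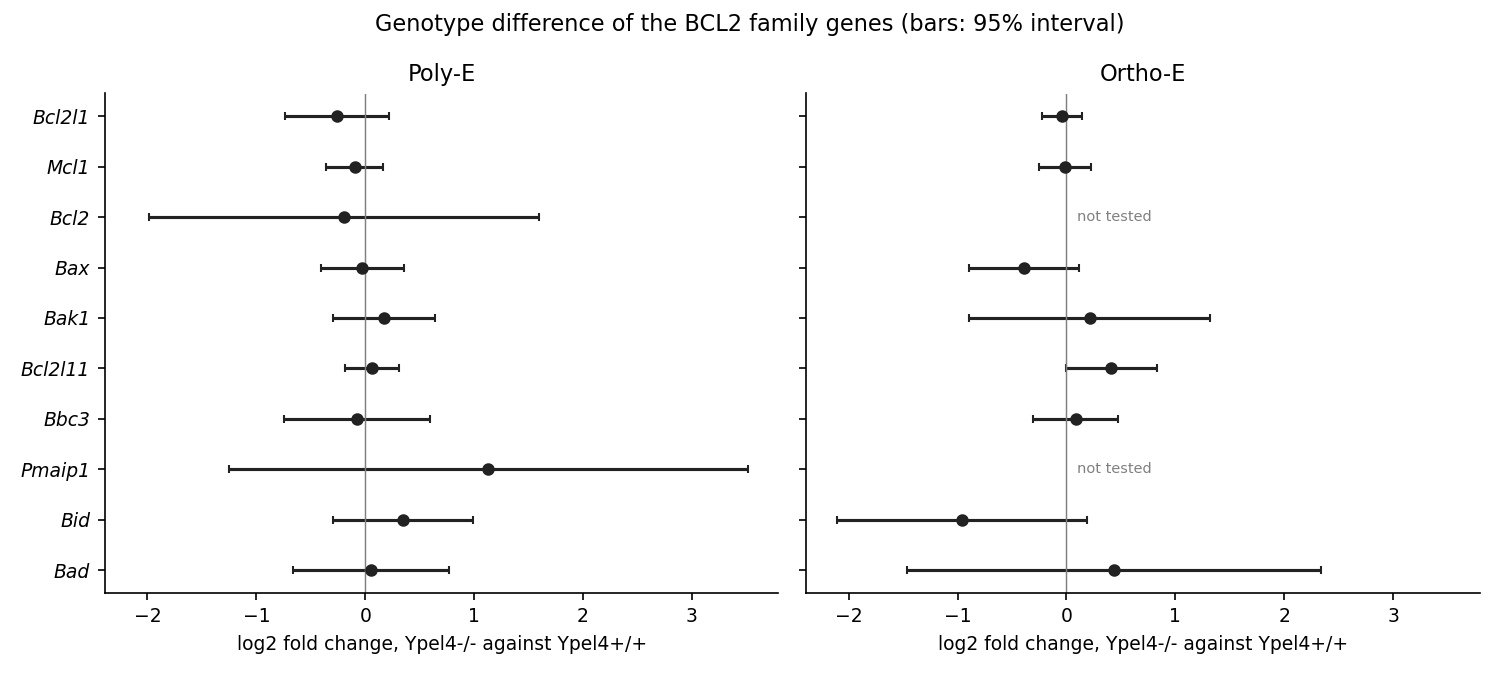
log2 fold change of each BCL2 family gene in *Ypel4*-/- against *Ypel4*+/+ mice (x axis) in Poly-E (left) and Ortho-E (right), with bars for the 95% confidence interval from edgeR. Every interval contains 0, and intervals are narrowest for *Bcl2l1* and *Mcl1* in Ortho-E and widest for *Pmaip1*, *Bcl2* and *Bad*.

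*Bcl2l11* in Ortho-E came closest to a genotype difference. Its 4 *Ypel4*-/- libraries, from 16 to 18.4 CPM, were all above the 4 *Ypel4*+/+ libraries, from 9.0 to 14.8 CPM, as was the case in one or the other direction for 2.35% of all genes tested. The log2 fold change was 0.41 (95% interval -0.0014 to 0.83, unadjusted p = 0.051 and adjusted p = 1.00 from edgeR). The summed B cell markers moved with it: they were at 23.4 to 33.3 CPM in *Ypel4*+/+ and at 43.4 to 52.2 CPM in *Ypel4*-/- Ortho-E, with all 6 detected in both groups, and their part in the difference of *Bcl2l11* was not tested. The study's antibodies for flow cytometry and sorting include B220, a stain that marks B cells, while the labels of these samples name CD44 and Ter119 only. In Poly-E, where these markers were at 14.7 to 23.7 and at 21.2 to 33.6 CPM, *Bcl2l11* overlapped between the genotypes. *Bax* in Ortho-E was at -0.39 (-0.89 to 0.12, adjusted p = 1.00), with overlapping ranges.

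Whether the change from Poly-E to Ortho-E differed between genotypes was tested with the interaction of genotype and population over all 16 libraries. The edgeR test called 0 of the 10 members and 0.0% of the 13318 genes, while 2.73% of all genes and 1 member had an unadjusted p under 0.05. That member was *Bid*, with an interaction of -1.33 on the log2 scale (95% interval -2.61 to -0.042, unadjusted p = 0.043, adjusted p = 1.00). For *Bcl2l1* the interaction was 0.20 (-0.29 to 0.70), for *Mcl1* 0.07 (-0.31 to 0.45), for *Bbc3* 0.15 (-0.81 to 1.12) and for *Bcl2l11* 0.33 (-0.15 to 0.81). DESeq2 called 0 members and 0.00504% of all genes.

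The other genes of the pathway are given by lists, with counts of genes called in Ortho-E against Poly-E of *Ypel4*+/+ mice after TMM scaling. There the median log2 fold change of all genes tested was -0.19, with 26.4% called higher and 32.1% lower. On library totals 10.4% of all genes were called higher and 60.3% lower. Of 15 other BCL2 family genes, 6 were tested, 4 were called higher and 2 lower. *Bnip3l* (NIX), needed for the removal of mitochondria in maturing red cells, was at 3.13, *Bcl2l15* at 2.36 and the BH3-only gene *Bmf* at 1.68. *Bik*, another BH3-only gene, was at -2.09 and *Bcl2l12* at -1.86. On library totals *Bnip3l* and *Bcl2l15* were still called higher (1.86 and 1.08), *Bmf* was not (0.41, adjusted p = 0.48), and *Bcl2l13*, called higher at 0.72 after TMM, was called lower at -0.56. *Bcl2a1a*, *Bcl2a1b*, *Bcl2a1d*, *Bcl2l10*, *Bok*, *Hrk* and *Bcl2l14* had 0 counts in all 16 libraries, which allows up to 0.0344 CPM by the summed library totals, counting error only. *Bcl2a1a*, *Bcl2a1b* and *Bcl2a1d* are near-identical copies whose read pairs can map to several places, so their 0 is uncertain.

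The apoptosome, caspase and mitochondrial factor genes were mostly lower after TMM scaling. Of 14 genes of the apoptosome, caspases and mitochondrial factors, 13 were tested, 9 were called lower and 0 higher, against 32.1% and 26.4% of all genes, and the median was -1.31. *Apaf1* and *Casp9*, which form the apoptosome, were at -1.37 and -1.57, and *Aifm1* was at -1.96. *Dffb*, a nuclease activated by caspases, was at -4.78, which rests on 112 counts in Poly-E and 1 in Ortho-E. In *Ypel4*-/- mice *Dffb* had 76 and 6 counts, and no gene tested in this list was below -1.88 there. On library totals in *Ypel4*+/+ mice, where 60.3% of all genes were called lower, all 13 were. Of 10 genes in the inhibitor of apoptosis list, 7 were tested. *Xiap* (-1.50), *Birc5* (-1.45) and *Birc6* (-1.23) were called lower. *Birc2* (0.93) and *Xaf1* (2.10), whose protein is an antagonist of XIAP and not itself an inhibitor of apoptosis, were called higher. On library totals neither was called higher in *Ypel4*+/+ mice, where *Xaf1* was at 0.81 (adjusted p = 0.25) and *Birc2* was called lower at -0.36. In *Ypel4*-/- mice *Xaf1* was called higher on library totals as well (1.23, adjusted p = 0.0088). Of 8 death receptor genes, 4 were tested and 1, *Ripk1*, was called lower (-1.49), while all 4 were called lower on library totals. *Fas* and *Tnfrsf1a* had 0 and 1 counts in the 4 Poly-E libraries of *Ypel4*+/+ mice.

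In the p53 axis list more genes were called higher than lower after TMM scaling, which turned to 1 higher and 3 lower on library totals. In the list of regulators of BCL2 family members, more were called lower than higher under both scalings. Of all genes tested, 26.4% were called higher and 32.1% lower after TMM scaling, and 10.4% and 60.3% on library totals. Of 9 genes of the p53 axis, 5 were called higher and 1 lower with a median of 1.48. *Trp53inp1* was at 2.34, *Aen*, a nuclease gene induced by p53, at 1.65 and *Trp53* at 1.57, while *Cdkn1a* was at -1.37. On library totals *Trp53inp1* alone was called higher (1.06), and *Trp53* and *Aen* were at 0.29 and 0.37 without a call. Of 19 regulators of BCL2 family members, 4 were called higher and 12 lower. *Pim1*, a kinase gene induced by STAT5, was at 2.91 and *Foxo3* at 2.12, and both were also called higher on library totals (1.63 and 0.83). *Huwe1*, a ubiquitin ligase gene for MCL1, was at 1.04 after TMM but at -0.25 on library totals (adjusted p = 0.067). *Vdac1* was at -2.07, *Stat5b* at -2.01 and *Akt1* at -1.82. None of the genes in these 6 lists was called between the genotypes in Poly-E or Ortho-E or in the interaction. In *Ypel4*-/- mice the counts of genes called higher and lower were 4 and 2 for the other BCL2 family genes. They were 0 and 10 for the apoptosome and caspases, and 3 and 3 for the inhibitor of apoptosis list with *Xaf1*. For the death receptor genes they were 0 and 2, for the p53 axis 6 and 1 and for the regulators 5 and 11. Of all genes tested in these mice, 29.5% were called higher and 31.5% lower.

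**Figure D5:**
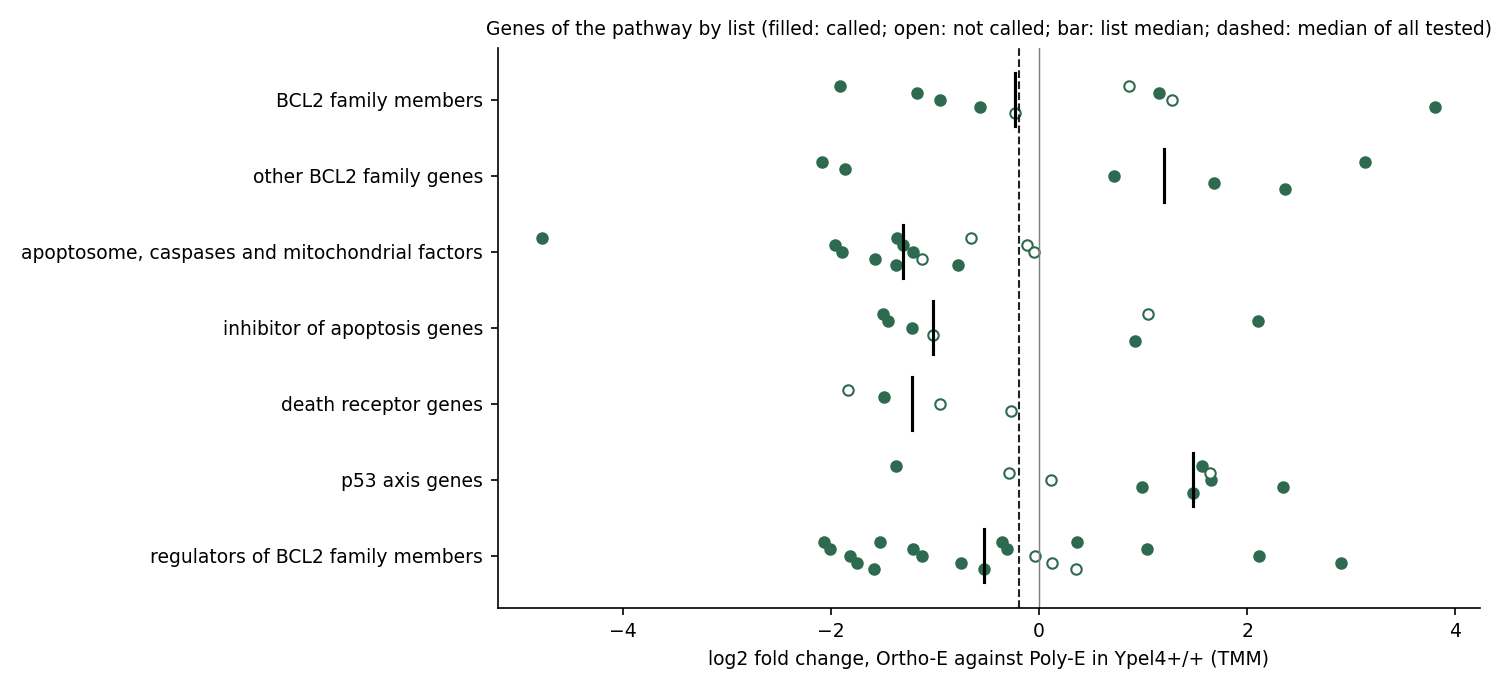
log2 fold change in Ortho-E against Poly-E of *Ypel4*+/+ mice after TMM scaling (x axis) for the tested genes of each list (y axis), filled where called and open where not, with a bar at the list median and a dashed line at the median of all genes tested. Medians range from -1.31 for the apoptosome, caspases and mitochondrial factors to 1.48 for the p53 axis, and *Bcl2l1* at 3.81 and *Bnip3l* at 3.13 are the highest points.

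The genes whose levels followed *Bcl2l1* most closely were named by the Pearson correlation of log2 CPM (prior count 2) over the 16 libraries, for the 5279 genes that averaged 50 or more counts. They were *Fam46c* and *St3gal5* (both 0.9996), *Akap13* (0.9995), and *Rnf10* and *3110002H16Rik* (both 0.9994). All 5 were far higher in Ortho-E. *Fam46c*, for instance, went from a mean of 1281 CPM in *Ypel4*+/+ Poly-E to 14294 CPM in Ortho-E. The measure mainly reflects the step between the populations, since 1135 of the 5279 genes reached 0.95. For *Mcl1*, whose step between the populations was small after TMM scaling, the closest gene was *Zfpm1* (0.952), which encodes the GATA1 partner FOG1. Next were *Samd14* (0.942), *Hnrnpa0* (0.931), *Dnm2* (0.91) and *Tusc1* (0.909). These 5 also differed between the populations, with lower mean CPM in Ortho-E of both genotypes. *Hnrnpa0*, for instance, went from 123 CPM in *Ypel4*+/+ Poly-E to 50.4 CPM in Ortho-E. The points share library depth and the difference between replicates 1 and 2 and replicates 3 and 4, and the correlations are given as a description.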

How the data were processed

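The authors mapped the reads to GRCm38 with nf-core/rnaseq and deposited whole-number counts per gene from featureCounts 1.6.4, not normalized, without strand, and leaving out reads on several genes; DESeq2 is named in their notes. Titles of the samples gave groups and replicates. The members and all gene lists were chosen with earlier results of these data known. Genes totalling 10 or more counts in the libraries compared were tested by robust quasi-likelihood fits after TMM scaling (edgeR 4.0.16, R 4.3.3). Adjusted p-values follow Benjamini and Hochberg over all genes tested, with a threshold of 0.05. The comparisons were the genotypes within each population, the populations within each genotype (8 libraries each), and their interaction (16 libraries). p-values measure the spread between these libraries.

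Alternatives were no filter, filterByExpr, DESeq2 1.42.0, its size factors in edgeR, library totals, globin genes left out, all 16 libraries, a replicate block and each library left out. A term for replicates 1 and 2 against 3 and 4 was added after seeing the data. Names of the deposited libraries hold a number that Poly-E and Ortho-E of 1 replicate share, read here as the mouse. Deviations of same-numbered libraries correlated at 0.416 to 0.605 between populations in *Ypel4*+/+ and 0.083 to 0.505 in *Ypel4*-/- mice. Between genotypes they correlated at 0.233 to 0.632 in Poly-E and at -0.093 to 0.304 in Ortho-E. In Poly-E, differently numbered libraries of the genotypes within replicates 1 and 2 or within 3 and 4 correlated at 0.227 to 0.591. These values therefore do not show pairs between the genotypes. The main tests were unpaired, with the replicate block as an alternative. The test was tried on simulated data.

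All members and *Ypel4* were named. From each other list, genes called for genotype and up to 3 highest and 3 lowest called genes in Ortho-E against Poly-E of *Ypel4*+/+ mice were named. Other list genes were chosen after their values were seen. Some list genes that this rule names are not reported here.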

Additional observations from a re-analysis of the deposited data

Results flagged for a closer look

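In 40 checks of 1 member in 1 group of 4 libraries, the highest library stood apart from the others in 2, by Dixon's 95% critical value for 4 libraries. For values with a normal spread, chance alone marks about 1 in 20 groups. That rate does not hold for counts near 0, where 1 count in 1 library and 0 in the others is always marked. *Bcl2* was at 0.193 CPM in 1 *Ypel4*-/- Ortho-E library, from 1 count, and at 0 in the other 3. *Pmaip1* was at 0.387 CPM in 1 *Ypel4*+/+ Poly-E library, from 2 counts, with 1 count in another library and 0 in the remaining 2. Both rest on 1 or 2 counts.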

How the results depend on the processing

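Of 831 recomputed log2 fold changes of members, 770 kept their direction and side of the threshold, 20 lost a call, 6 gained one and 35 changed sign. No member was called between the genotypes or in the interaction under any alternative. Called higher in Ortho-E were 2 members in each genotype but 1 on library totals, and 2 to 3 in *Ypel4*+/+ mice with a library left out. Called lower in *Ypel4*+/+ were 4, but 2 with filterByExpr and 2 with DESeq2, and 2 to 4 with a library left out (2 without Ortho-E replicate 4). In *Ypel4*-/- mice 2 to 4 of 4 were called lower with a library left out (2 without Ortho-E replicate 2). The replicate block made *Mcl1* a call in *Ypel4*+/+ (-0.23) and turned *Bax* between the genotypes in Poly-E to 0.0026, and changed no other call of a member. Over all genes it moved the calls between genotypes from 1 to 4 in Poly-E and from 3 to 13 in Ortho-E, and in the interaction from 0 to 1.

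Scaling to library totals turned *Bax* between genotypes in Poly-E to 0.021, *Mcl1* between genotypes in Ortho-E to 0.017, and, for Ortho-E against Poly-E, *Bbc3* (-0.14) and *Bid* (-0.41) in *Ypel4*+/+ and *Pmaip1* (-0.56) in *Ypel4*-/- mice. *Mcl1* in Ortho-E against Poly-E of *Ypel4*-/- mice was 0.11 with filterByExpr, 0.0056 with DESeq2's size factors and 0.0051 with DESeq2. The cause was not tested, except that each of these settings changes the scale.

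With a library left out, the sign also turned for values near 0. Between genotypes in Poly-E, *Bcl2* ranged from -0.46 to 0.24, *Bax* from -0.17 to 0.18, *Bbc3* from -0.25 to 0.12 and *Bad* from -0.13 to 0.31. In Ortho-E, *Bcl2l1* ranged from -0.079 to 0.0066, *Mcl1* from -0.070 to 0.10, *Bak1* from -0.091 to 0.47, *Bbc3* from -0.065 to 0.23 and *Bad* from -0.19 to 0.93. *Mcl1* in Ortho-E against Poly-E of *Ypel4*-/- mice ranged from -0.11 to 0.077, and in the interaction *Bak1* ranged from -0.27 to 0.28 and *Bad* from -0.84 to 0.98. *Bcl2* and *Pmaip1* had at most 8 counts summed over a group of 4 libraries, too few to be tested in every comparison.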
